A study of Mus musculus with 8 samples.

Results

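The EGF family ligands and their ERBB receptors were followed by RNA-seq in whole skin of Nampt-cKO and control mice. The family was taken as the 10 genes Areg, Epgn, Hbegf, Tgfa, Btc, Ereg, Egf, Egfr, Erbb2 and Erbb3, found by their gene symbols among the 36333 genes of the deposited table. The symbols alone define the family, but it was chosen for description with earlier results of these data known. It comprised 7 ligands and 3 receptors, and each of the 10 was present in the table and passed the low-count filter. The study deleted Nampt, which encodes the rate-limiting enzyme of NAD+ salvage, from the epidermis and asked which skin transcripts then differed. The Nampt-cKO group consisted of 4 libraries from 8-week-old male C57BL/6J mice of genotype Nampt flox/flox; KRT5-CreERT2+, and the control group of 4 libraries from male C57BL/6J mice of the same age and genotype Nampt flox/flox. Tamoxifen, which activates CreERT2, was labelled for the Nampt-cKO mice only, at 100 μg per g body weight once a day for 5 days, and skin was collected on Day 19 by the study's methods. Elsewhere the study describes tamoxifen for control mice too, in its irradiation and topical treatment experiments and in its general time line, so whether these controls received it was not settled. The effects of the deletion and of CreERT2 therefore cannot be told apart, nor those of tamoxifen if the controls had none. The Krt5 promoter directs CreERT2 to basal keratinocytes, so recombination is meant to be limited to them and the cells they give rise to. These libraries do not measure recombination by cell type. The labels did not state that each library came from a different mouse, and p-values then measure only the spread between these libraries. On counts taken as read pairs, chi-square per gene between libraries of a group was 8.93 to 30.9 in control skin. It was 44.1 to 143 in Nampt-cKO skin, and both ranges exceed what read sampling alone gives. Whether the spread lies between mice, pieces of skin or library preparations was not tested.

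The ligands of this family are made as membrane proteins, and proteases of the ADAM class cut most of them free. They bind the receptor tyrosine kinase EGFR, which pairs with itself or with ERBB2 or ERBB3. ERBB2 has no known ligand of its own, and ERBB3 binds neuregulins and signals mainly through its partner. Receptor pairs switch on RAS, the kinases MEK and ERK, PI3K and STAT3, and feedback inhibitors induced by ERK dampen the signal. In skin the pathway drives keratinocyte proliferation and migration, wound closure and hair follicle cycling, and amphiregulin, HB-EGF and TGF-alpha are known as ligands that keratinocytes make and respond to.

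Libraries held 39390895 to 52672388 exon reads in Nampt-cKO skin and 41206078 to 53762935 in control skin, so that members other than Egf were backed by 255 to 11191 exon reads in each library. Nampt itself had 6.09, 6.68, 13.7 and 8.52 RPKM (reads scaled to exon length and library size) in Nampt-cKO skin, against 14.8, 13.9, 13.6 and 11.4 RPKM in control skin. Its log2 fold change was −0.53 ± 0.24 (SE), which did not pass edgeR's quasi-likelihood test (adjusted p = 0.0974). The library labelled Nampt-cKO replicate 3 lay within the control range, and without it the log2 fold change was −0.83 (adjusted p = 0.00284). Markers of other cells and states differed in level as well. The summed CPM (counts scaled to library size only) of 4 stress keratins was 8575 to 19945 in Nampt-cKO skin and 1982 to 2088 in control skin, and that of 9 spinous and granular keratinocyte genes was 3701 to 9788 in Nampt-cKO skin and 18917 to 20308 in control skin. Proliferation genes, 6 in number, summed to 375 to 599 CPM in Nampt-cKO skin and 136 to 195 CPM in control skin, and 6 sebaceous gland genes to 461 to 1151 CPM in Nampt-cKO skin and 1545 to 1997 CPM in control skin. The 10 listed neutrophil genes, 7 of them tested, summed to 11.2 to 49.8 CPM in Nampt-cKO skin and 1.34 to 2.02 CPM in control skin. T cell genes summed to 4.06 to 9.04 CPM in Nampt-cKO skin and 31.0 to 40.8 CPM in control skin, and fibroblast genes to 2227 to 4180 CPM in Nampt-cKO skin and 5121 to 7987 CPM in control skin. In these 7 lists the sums of the groups did not overlap. The fibroblast genes did not share a direction: the 3 collagens Col1a1, Col1a2 and Col3a1 were lower, Pdgfra was higher and 3 genes were not past the test. Among the latter, Dcn had a log2 fold change of −0.03 (edgeR adjusted p = 0.951). Ngp, a neutrophil granule gene, was at 0 exon reads in every control library, which allows up to 3 reads in each. Basal keratinocyte genes, with Krt5 as the most abundant, summed to 21620 to 28684 CPM in Nampt-cKO skin and 19785 to 22202 CPM in control skin. The part of these cell type markers in the results below was not tested, and in whole skin fewer cells of a type and less RNA per cell cannot be told apart.

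On mouse chromosome 5, 4 of the ligand genes lie side by side. In GRCm38 coordinates of the deposited table, counted from 1, Epgn spans chr5:91027517-91035212, Ereg chr5:91074617-91093649, Areg chr5:91139599-91148432 and Btc chr5:91357261-91402994, so that the cluster covers 375 kb. RefSeq promoter windows of GRCm38.p6, from 250 bases before to 50 bases after the start site, were found for 7 of the 10 members. The windows of Epgn, Areg and Btc are shown because these neighbours differed between the groups in opposite directions. Each is written 5′ to 3′ in the direction of transcription, and capitals mark matches, on either strand, to the TATA box TATAAA, the cAMP response element TGACGTCA or the GC box GGGCGG.
Epgn, chr5:91027267-91027566, plus strand: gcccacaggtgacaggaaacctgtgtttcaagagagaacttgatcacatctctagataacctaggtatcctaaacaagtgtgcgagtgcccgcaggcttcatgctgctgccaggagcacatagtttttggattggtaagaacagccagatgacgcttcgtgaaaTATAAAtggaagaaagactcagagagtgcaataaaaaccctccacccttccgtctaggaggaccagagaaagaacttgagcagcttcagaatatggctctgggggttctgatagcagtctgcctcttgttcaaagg
Areg, chr5:91139349-91139648, plus strand: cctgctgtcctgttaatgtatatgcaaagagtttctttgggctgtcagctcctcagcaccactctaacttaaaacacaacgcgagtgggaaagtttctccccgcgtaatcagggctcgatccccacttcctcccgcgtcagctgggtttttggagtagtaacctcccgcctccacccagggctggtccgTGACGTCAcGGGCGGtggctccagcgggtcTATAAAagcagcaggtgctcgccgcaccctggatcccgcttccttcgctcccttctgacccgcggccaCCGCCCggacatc
Btc, chr5:91402945-91403244, minus strand: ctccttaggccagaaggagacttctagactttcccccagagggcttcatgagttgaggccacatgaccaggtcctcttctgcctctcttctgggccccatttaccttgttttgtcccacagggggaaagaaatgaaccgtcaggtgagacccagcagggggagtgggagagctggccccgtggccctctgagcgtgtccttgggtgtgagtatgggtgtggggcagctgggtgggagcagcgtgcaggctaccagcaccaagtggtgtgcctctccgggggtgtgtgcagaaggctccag
The Areg window held TATAAA with its first base at −31 relative to the start site, the cAMP response element TGACGTCA at −61 and GC boxes at −52 and, on the opposite strand, at +38. The Epgn window held TATAAA at −86, and the Btc window held no match to the 6 motifs searched, which also included AP-1 (TGANTCA), STAT (TTCNNNGAA) and NF-kB. Of 32851 mouse promoter windows of the same length, 13.6% held TATAAA, 1.79% the cAMP response element, 35.7% a GC box, 7.81% the AP-1 motif, 8.30% the STAT motif and 8.46% the NF-kB motif, and the marked motifs did not overlap one another. A match describes the letters of a window and not the binding of a factor.

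In the comparison of Nampt-cKO with control skin, 5 of the 10 members were higher (Epgn, Areg, Hbegf, Tgfa and Egfr), 2 were lower (Btc and Erbb2) and 3 did not pass the test (Ereg, Egf and Erbb3). Over all 17286 genes tested, 23.8% were higher, 22.0% lower and 45.7% past the test in either direction, so a change as such was common in this comparison. The ligands Btc, Epgn, Areg and Hbegf were among the genes with the larger differences. Of all tested genes, 2.39% had a larger absolute log2 fold change than Btc, 3.31% than Epgn, 3.55% than Areg and 4.71% than Hbegf, against 16.3% for Tgfa, 35.3% for Ereg, 48.5% for Erbb2 and 57.8% for Egfr. In 6 members the ranges of the groups did not overlap, in RPKM and likewise in CPM. Over all tested genes the CPM ranges of 45.3% did not overlap either. By a two-sided exact permutation test of RPKM these 6 members reached p = 0.0286, the smallest value that 4 against 4 libraries can give. Ranges that do not overlap always give this value, so it adds nothing to their count. Ereg and Hbegf gave an exact permutation p of 0.0571.

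**Figure D1:**
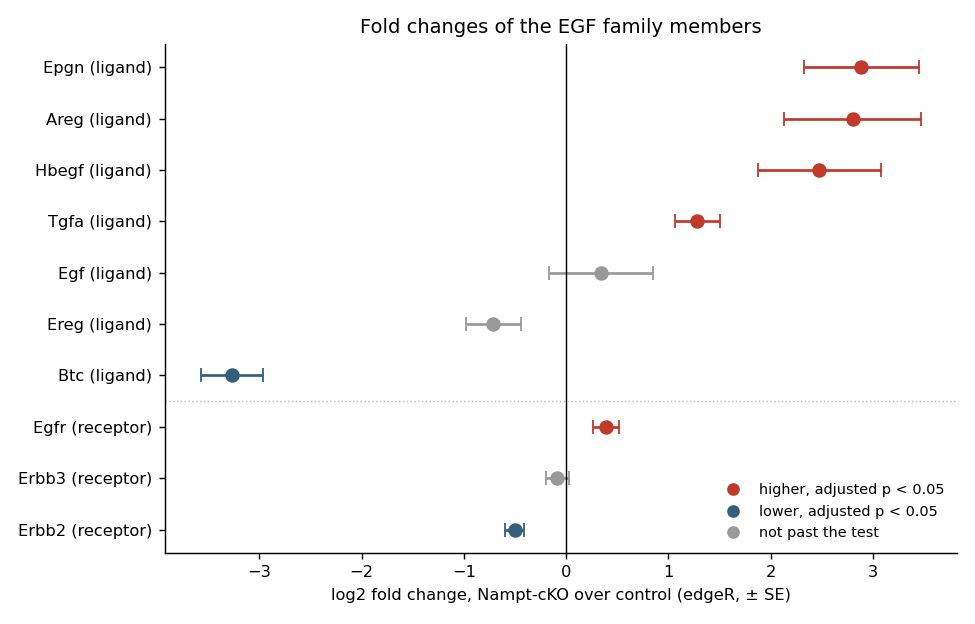
Log2 fold change of each member, Nampt-cKO over control, from edgeR, with bars of 1 SE and a dotted line between ligands and receptors. Ligands ran from −3.27 (Btc) to 2.89 (Epgn), and receptors from −0.50 (Erbb2) to 0.39 (Egfr).

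Among the ligands, 4 transcripts were higher in Nampt-cKO skin. Epgn encodes epigen, a low-affinity ligand of EGFR, and was the most abundant ligand transcript there. It measured 46.9, 59.5, 77.7 and 129 RPKM in Nampt-cKO skin, against 8.30, 5.90, 5.46 and 25.6 RPKM in control skin, with means of 78.4 ± 36.3 RPKM in Nampt-cKO skin and 11.3 ± 9.62 RPKM in control skin (SD, n = 4 each). All Nampt-cKO libraries lay above all control libraries, and the log2 fold change was 2.89 ± 0.56 (SE; edgeR adjusted p = 0.00251). Areg encodes amphiregulin, which keratinocytes release in wounds and in psoriasis. Its levels were 19.4, 36.9, 46.8 and 105 RPKM in Nampt-cKO skin, against 4.57, 5.16, 3.54 and 18.9 RPKM in control skin. The groups did not overlap, although Nampt-cKO replicate 1 and control replicate 4 were close, and the log2 fold change was 2.80 ± 0.67 (edgeR adjusted p = 0.00771).

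Hbegf encodes heparin-binding EGF, a ligand of EGFR and ERBB4 that acts in keratinocyte migration. Its transcript (chr18:36504927-36515805) reached 11.9, 24.4, 46.5 and 58.0 RPKM in Nampt-cKO skin and 4.79, 4.56, 3.27 and 14.5 RPKM in control skin. Nampt-cKO replicate 1 lay below control replicate 4, so the groups overlapped, while the log2 fold change of 2.48 ± 0.60 passed the test (edgeR adjusted p = 0.00804). Tgfa (chr6:86195227-86275743) encodes TGF-alpha, a high-affinity EGFR ligand of keratinocytes. Its levels were 18.3, 25.0, 31.5 and 39.8 RPKM in Nampt-cKO skin, against 13.0, 11.9, 12.5 and 12.8 RPKM in control skin. The control libraries lay close together at 12.6 ± 0.471 RPKM (SD, n = 4), all Nampt-cKO libraries exceeded them, and the log2 fold change was 1.28 ± 0.22 (edgeR adjusted p = 0.00129). Within the Nampt-cKO group Epgn, Areg, Hbegf and Tgfa were all lowest in replicate 1 and highest in replicate 4, an order that Ereg and Egfr shared.

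Control replicate 4 stood apart from the other control libraries in 3 of these ligands. Without it, control skin averaged 6.56 ± 1.53 RPKM of Epgn, 4.42 ± 0.823 RPKM of Areg and 4.21 ± 0.818 RPKM of Hbegf (SD, n = 3), and none of the 3 then overlapped with Nampt-cKO skin. The log2 fold changes without it were 3.68 for Epgn (edgeR adjusted p = 0.000401), 3.67 for Areg (adjusted p = 0.00192) and 3.17 for Hbegf (adjusted p = 0.00263). Leaving out Nampt-cKO replicate 4 gave a log2 fold change of 2.17 for Areg (adjusted p = 0.0203). Tgfa and Btc in control replicate 4, at 12.8 and 26.6 RPKM, were within the range of the other control libraries. The skeletal muscle gene Acta1, low in this library at 23.4 RPKM against 170 to 335 RPKM in the other control libraries, and the immediate early gene Fos, at 924 RPKM against 133 to 324 RPKM, also set it apart from them. Among Nampt-cKO libraries Fos was likewise highest in replicate 4, at 568 RPKM against 148 to 275 RPKM. Acta1 was at 20.0 and 44.8 RPKM in Nampt-cKO replicates 1 and 4, against 173 and 536 RPKM in replicates 2 and 3. The part of Acta1 and Fos in the ligand levels was not tested.

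**Figure D2:**
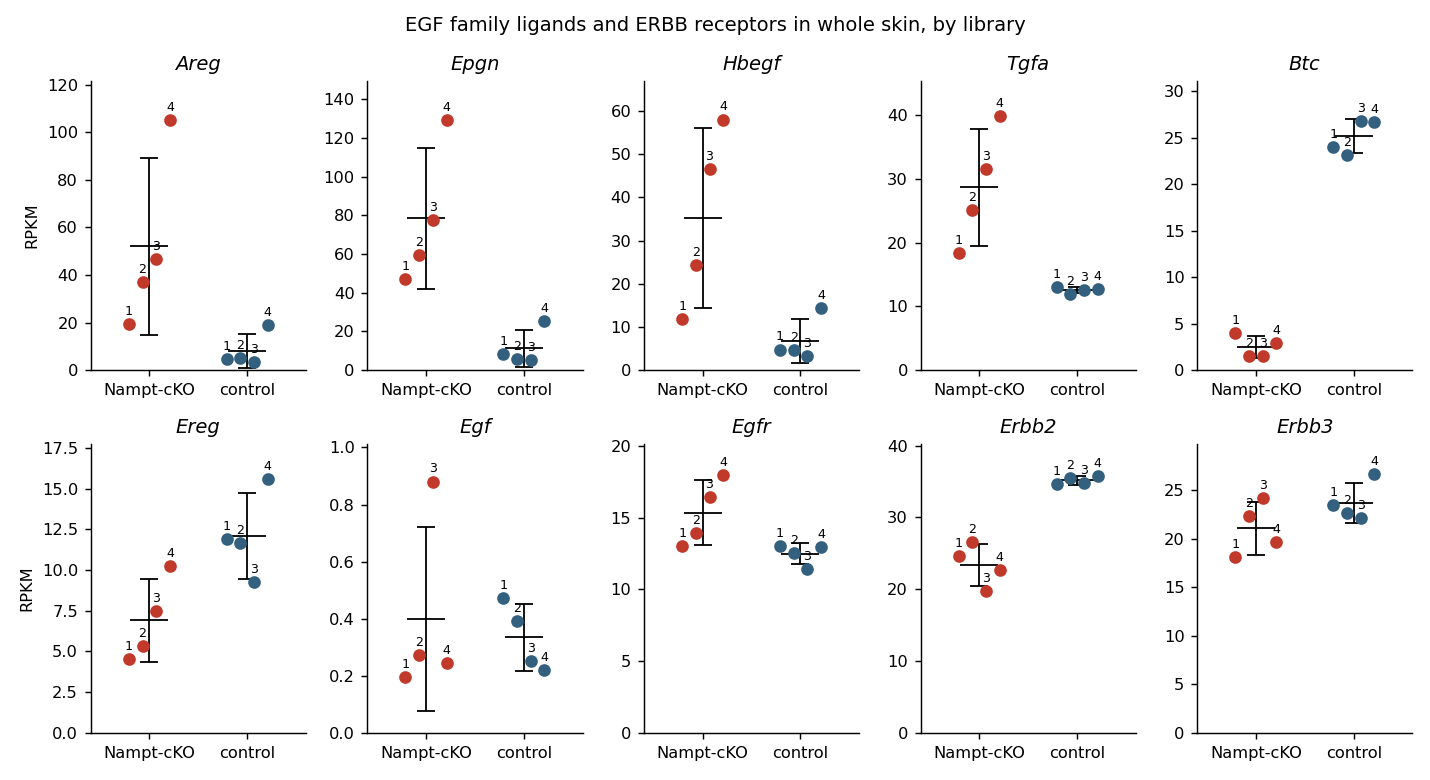
RPKM of the 7 ligands and 3 receptors in each library, Nampt-cKO at left and control at right of each panel, with replicate numbers beside the points and bars for mean ± SD (n = 4); each panel has its own axis from 0. Areg, Epgn and Tgfa lie higher and Btc and Erbb2 lower in all Nampt-cKO libraries, and control replicate 4 is the highest control library for Areg, Epgn and Hbegf.

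Btc, which encodes betacellulin, a ligand of EGFR and ERBB4, moved the other way. It had 3.98, 1.50, 1.49 and 2.91 RPKM in Nampt-cKO skin, against 24.0, 23.1, 26.7 and 26.6 RPKM in control skin. All control libraries lay within a narrow range above every Nampt-cKO library, and Btc was 10.2-fold lower in mean RPKM, with a log2 fold change of −3.27 ± 0.30 (edgeR adjusted p = 5.48e-05). The summed spinous and granular, sebaceous gland, T cell and fibroblast genes were likewise lower in every Nampt-cKO library. Of the fibroblast genes, 3 collagens were lower and Pdgfra was higher. Of 7 Langerhans and dendritic cell genes, 5 were lower and 2 not past the test. Their sums overlapped, at 147 to 302 CPM in Nampt-cKO skin and 240 to 301 CPM in control skin. The part of these cell type genes in the level of Btc was not tested. Ereg, which encodes epiregulin, a ligand of EGFR and ERBB4 with a role in keratinocyte growth, had 4.56, 5.36, 7.47 and 10.2 RPKM in Nampt-cKO skin and 11.9, 11.6, 9.24 and 15.6 RPKM in control skin. Nampt-cKO replicate 4 lay above control replicate 3, and the log2 fold change of −0.71 ± 0.27 did not pass the test (edgeR adjusted p = 0.0547), although it did in 10 of 23 alternative settings (adjusted p from 0.00884 to 0.174), the replicate block among them (adjusted p = 0.0174). Egf (chr3:129677574-129755439), the founding ligand of the family, was scarce, with 0.197, 0.272, 0.881 and 0.244 RPKM in Nampt-cKO skin and 0.472, 0.393, 0.254 and 0.220 RPKM in control skin. These values rested on 59 to 278 exon reads a library in Nampt-cKO skin and 62 to 122 in control skin, the groups overlapped and the difference did not pass (log2 fold change 0.34 ± 0.51, edgeR adjusted p = 0.621). Without Nampt-cKO replicate 3 the log2 fold change of Egf was −0.41 (adjusted p = 0.405).

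The make-up of the ligand transcripts differed between the groups. Since RPKM is scaled to exon length, levels of the ligands can be compared with each other on it. Summed over the 7 ligands, Nampt-cKO libraries held 105, 153, 212 and 346 RPKM, against 67.1, 62.8, 61.0 and 114 RPKM in control libraries. The sums overlapped only between Nampt-cKO replicate 1 and control replicate 4. Epgn made up 36.6% to 44.6% of the ligand sum in Nampt-cKO skin and 8.95% to 22.5% in control skin, and Areg 18.4% to 30.4% in Nampt-cKO skin and 5.80% to 16.5% in control skin. Btc, by contrast, made up 0.702% to 3.78% in Nampt-cKO skin and 23.3% to 43.8% in control skin, and Ereg 2.96% to 4.33% in Nampt-cKO skin and 13.6% to 18.5% in control skin. A share also falls when other ligands rise, and the RPKM ranges of Ereg itself overlapped and its difference did not pass the test. The shares of Tgfa, at 11.5% to 17.4% in Nampt-cKO skin and 11.2% to 20.5% in control skin, overlapped. Epgn was the leading ligand in each Nampt-cKO library and Btc in each control library, control replicate 4 included. In that library Epgn and Btc were nearly level, with an Epgn to Btc ratio of 0.963. The ratio was 11.8 to 52.2 in Nampt-cKO skin and 0.204 to 0.346 in the other control libraries.

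**Figure D3:**
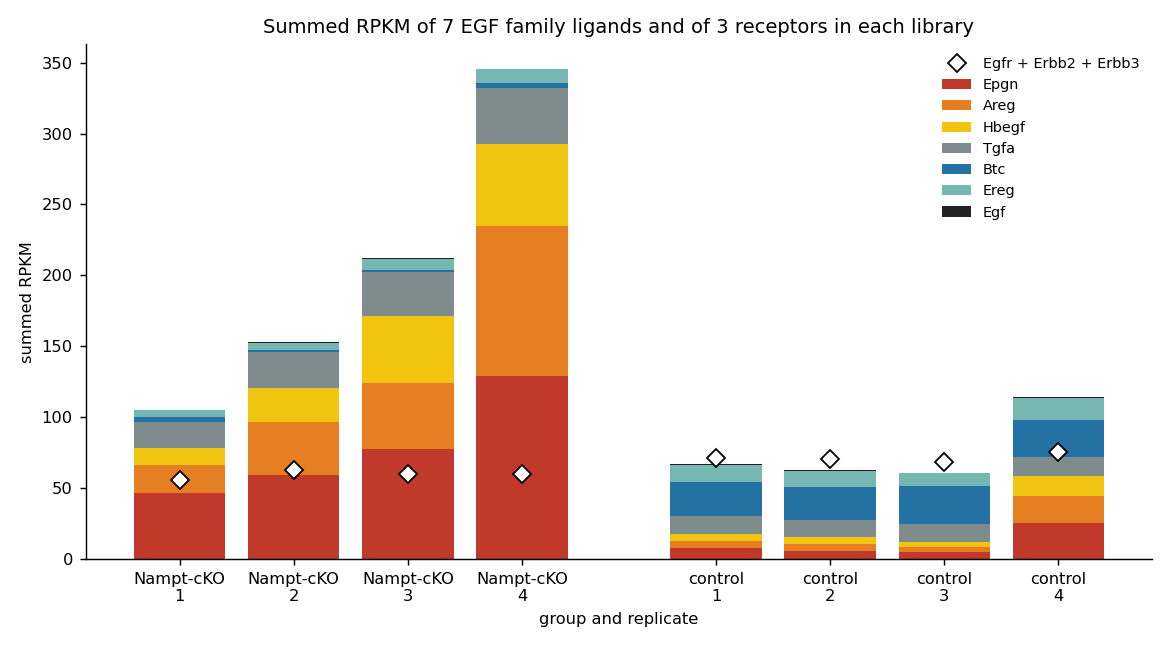
Summed RPKM of the 7 ligands in each library, stacked by gene, with the sum of Egfr, Erbb2 and Erbb3 as open diamonds; Nampt-cKO libraries stand at left and control libraries at right. Epgn, Areg, Hbegf and Tgfa fill the Nampt-cKO bars, Btc is the largest single part of each control bar, and receptor sums stay between 55.8 and 75.4 RPKM.

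In order of mean RPKM, Nampt-cKO skin held Epgn, Areg, Hbegf and Tgfa, at 78.4, 52.1, 35.2 and 28.6 RPKM, whose neighbouring ranges overlapped, then Ereg at 6.91, Btc at 2.47 and Egf at 0.398 RPKM, each separated from the one before. In control skin Btc stood first at 25.1 RPKM, followed by Tgfa at 12.6, Ereg at 12.1, Epgn at 11.3, Areg at 8.03 and Hbegf at 6.78 RPKM, whose neighbouring ranges overlapped, and Egf was last at 0.335 RPKM. The range of Btc lay clear of those of Tgfa, Ereg, Areg and Hbegf but overlapped that of Epgn, which in control replicate 4, at 25.6 RPKM, exceeded Btc in control replicates 1 and 2.

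The ligand genes of chromosome 5 did not share a direction. Epgn and Areg, which were higher in Nampt-cKO skin, flank Ereg, which was not past the test, and Btc, which was lower, starts 209 kb beyond the end of Areg. The gaps between Epgn and Ereg and between Ereg and Areg measure 39.4 and 45.9 kb. The gene LOC102639958 overlaps Ereg by 147 bases and had a log2 fold change of 1.12 (edgeR adjusted p = 0.0728). Whether the counting used strand is not stated in the sources, so reads in those 147 bases could belong to either gene. Outside the cluster, Mthfd2l next to Epgn had a log2 fold change of −0.09 (edgeR adjusted p = 0.658), and Parm1, beyond Btc, was lower with a log2 fold change of −0.80 (adjusted p = 0.0245). Introns took 6.29% to 15.0% of the reads of the Epgn gene in Nampt-cKO skin against 16.0% to 20.8% in control skin, and 7.31% to 14.2% of those of Ereg in Nampt-cKO skin against 3.95% to 6.81% in control skin, so the 2 genes differed in opposite senses here. The intron shares of Areg, 17.8% to 34.5% in Nampt-cKO skin and 22.7% to 37.1% in control skin, overlapped, as did those of Btc, 1.53% to 6.79% in Nampt-cKO skin and 3.59% to 5.25% in control skin. Over all genes introns took 12.7% to 16.5% of gene reads in Nampt-cKO skin and 10.8% to 11.8% in control skin, and the part of this difference in the exon counts was not tested.

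**Figure D4:**
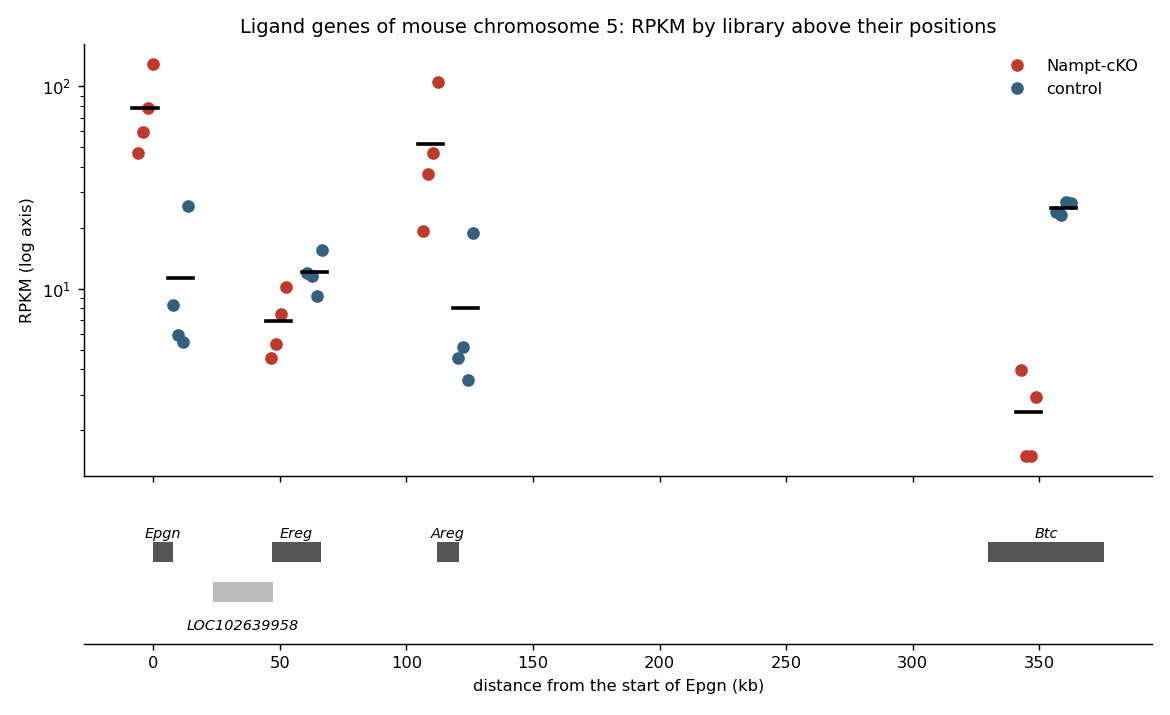
RPKM (log axis) of the 4 chromosome 5 ligands in each library, Nampt-cKO left of control at each gene, with lines at the group means, above a map to scale of distance in kb from the start of Epgn. Epgn and Areg lie higher and Btc lower in Nampt-cKO skin, with Ereg, whose ranges overlap, between Epgn and Areg.

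The receptors had smaller log2 fold changes than the 5 ligands past the test. Erbb2 (chr11:98412484-98437716), the common partner of the other receptors, had 24.7, 26.6, 19.8 and 22.6 RPKM in Nampt-cKO skin, against 34.6, 35.5, 34.7 and 35.8 RPKM in control skin. Every Nampt-cKO library lay below every control library, and the log2 fold change was −0.50 ± 0.09 (edgeR adjusted p = 0.00195). Egfr (chr11:16752203-16913907), the receptor that all 7 ligands bind, had 13.1, 13.9, 16.4 and 18.0 RPKM in Nampt-cKO skin and 13.0, 12.5, 11.4 and 12.9 RPKM in control skin. The lowest Nampt-cKO library, replicate 1, was next to the highest control library, and the log2 fold change of 0.39 ± 0.12 passed the test (edgeR adjusted p = 0.0284). That call was lost when any control library or Nampt-cKO replicate 3 or 4 was left out (adjusted p from 0.0518 to 0.0838) and in limma on log2 RPKM (adjusted p from 0.0573 to 0.0763). The RPKM scale was offset, with a median log2 fold change over all genes of −0.10 in limma on log2(RPKM + 0.1) against −0.01 in edgeR. Erbb3 (chr10:128569368-128589501), the kinase-impaired neuregulin receptor, had 18.1, 22.4, 24.2 and 19.6 RPKM in Nampt-cKO skin and 23.5, 22.6, 22.1 and 26.7 RPKM in control skin. These ranges overlapped, and the log2 fold change was −0.08 ± 0.11 (edgeR adjusted p = 0.575).

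The ratio of Erbb2 to Egfr on the RPKM scale was 1.20 to 1.91 in Nampt-cKO skin and 2.65 to 3.04 in control skin, with no overlap. The summed receptor RPKM was 55.8 to 62.9 in Nampt-cKO skin and 68.3 to 75.4 in control skin. In CPM the receptor sums overlapped, at 327 to 395 in Nampt-cKO skin and 385 to 430 in control skin. The ratio of ligand to receptor sums in RPKM was 1.89 to 5.74 in Nampt-cKO skin and 0.889 to 1.51 in control skin. The order Erbb2, Erbb3, Egfr by mean RPKM was common to both groups, except that Erbb2 and Erbb3 overlapped in Nampt-cKO skin. Other features of the table overlap these genes, namely Mien1 at Erbb2, Gm39584 at Egfr and Mir6917 at Erbb3, and reads in the shared bases cannot be assigned without strand.

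The genes whose profile over the 8 libraries lay nearest to those of Btc and Tgfa, the 2 members with the smallest p-values, were sought among 13549 genes by root mean square distance of centred log2 CPM. For Btc they were H2-Aa, a class II antigen-presenting chain, at a distance of 0.186, Cpxm2 at 0.194 and Ces1d, a carboxylesterase, at 0.198. For Tgfa they were Sbno2 at 0.111, Padi4, which citrullinates proteins, at 0.118 and Zfp281, a zinc finger transcription factor, at 0.128.

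Other genes of the pathway were followed in 6 lists of 79 genes in all. Of the 78 tested, 35 were higher, 12 lower and 31 not past the test, which makes 60.3% past the test against 45.7% of all genes, and their median log2 fold change was 0.20 against −0.01 over all genes. The lists were chosen with earlier results of these data known, so their share is a description and not evidence of an excess. Among the other ERBB family genes Nrg1, which encodes neuregulin 1, a ligand of ERBB3 and ERBB4, was much higher. It had 1.20, 1.94, 2.34 and 3.28 RPKM in Nampt-cKO skin, against 0.0546, 0.108, 0.0755 and 0.0668 RPKM in control skin, with a log2 fold change of 4.93 ± 0.37 (edgeR adjusted p = 1.98e-05). The groups were far apart, at 7644 exon reads over the Nampt-cKO libraries and 270 over the control libraries. On total gene reads the log2 fold change of Nrg1 was 4.28 (adjusted p = 2.13e-05), and on limma's log2 scale of RPKM with a pseudocount of 0.1 or 1, which understates low genes, it was 3.63 or 1.53. Nrg4, an ERBB4 ligand, was lower with a log2 fold change of −0.86 ± 0.31 (adjusted p = 0.0487), a call that was lost without any one of Nampt-cKO replicates 2, 3 and 4 or any one control library (adjusted p from 0.0842 to 0.113) and under 4 other scalings or filters (adjusted p from 0.0510 to 0.0556). On unique exon reads the log2 fold change of Nrg4 was −1.70 (adjusted p = 0.0358). Nrg2 was not past the test, Nrg3 was not tested, with 14 exon reads over Nampt-cKO skin and 0 over control skin, and the receptor Erbb4 was barely detected, with 32 exon reads over Nampt-cKO skin and 88 over control skin.

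Genes that free or hold back the ligands did not share a direction. Of 10 tested, 3 were higher, 3 lower and 4 not past the test, with a median log2 fold change of −0.04. Over all genes tested 23.8% were higher and 22.0% lower, not far from the counts of this list. The counts of the lists below are to be read beside the same shares. The metalloproteases Adam9 (log2 fold change 0.87), Adam10, the main sheddase of EGF and betacellulin (0.56), and Adam8 (1.44) were higher, with edgeR adjusted p of 0.000371, 0.000491 and 0.0031. Rhbdl2, an intramembrane protease, fell to 2.09 to 2.76 RPKM in Nampt-cKO skin, against 6.95 to 7.74 RPKM in control skin (log2 fold change −1.52 ± 0.12, edgeR adjusted p = 2.23e-05). Adam17, the main sheddase of amphiregulin, HB-EGF and TGF-alpha, and its partner Rhbdf2, both named after their values were seen, were slightly lower, with log2 fold changes of −0.29 (edgeR adjusted p = 0.0127) and −0.34 (adjusted p = 0.00856). The Adam17 call was lost without both control replicate 4 and Nampt-cKO replicate 3 (adjusted p = 0.0694). Timp3, a protease inhibitor and the most abundant gene of the list, had a log2 fold change of −0.26 that did not pass (edgeR adjusted p = 0.556) but was −0.71 without Nampt-cKO replicate 1 (adjusted p = 0.0186).

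Of 15 genes of receptor inhibition and turnover, 7 were higher, 3 lower and 5 not past the test, with a median log2 fold change of 0.21. Socs5, which promotes EGFR degradation, was higher and varied little within either group, at 13.1 to 14.9 RPKM in Nampt-cKO skin and 6.28 to 7.02 RPKM in control skin (log2 fold change 1.12 ± 0.09, edgeR adjusted p = 2.17e-05). The tyrosine phosphatases Ptpn2, Ptpn1 and Ptprj were higher by log2 fold changes of 0.71, 0.48 and 0.70 (edgeR adjusted p = 0.00109, 0.00137 and 0.00376). Lrig1, an EGFR inhibitor of epidermal stem cells named after its values were seen, was lower, at 15.5 to 28.2 RPKM in Nampt-cKO skin and 30.9 to 42.2 RPKM in control skin (log2 fold change −0.77 ± 0.17, edgeR adjusted p = 0.00531). Errfi1, which encodes the EGFR kinase inhibitor MIG6 and was the most abundant of the list, was not past the test, with a log2 fold change of −0.11 (adjusted p = 0.671).

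Of 25 adaptors and members of the RAS to ERK, PI3K and STAT3 cascades, 10 were higher, 5 lower and 10 not past the test, with a median log2 fold change of 0.13. Stat3 was at 84.2 to 108 RPKM in Nampt-cKO skin and 44.0 to 48.7 RPKM in control skin, a log2 fold change of 1.17 ± 0.11 (edgeR adjusted p = 5.28e-05). Map2k1, which encodes MEK1, and the adaptor Shc1 were higher by log2 fold changes of 0.77 and 0.78 (edgeR adjusted p = 0.000109 and 0.000214). The adaptor Gab1 and Mapk3, which encodes ERK1 and was the most abundant gene of the list, were lower by log2 fold changes of −0.70 and −0.57 (edgeR adjusted p = 0.000219 and 0.000726).

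Transcripts known to be induced through ERK were mostly higher. Of 14 such targets, 10 were higher and 4 were not past the test, and their median log2 fold change was 1.73. The 4 that did not pass had negative log2 fold changes, from −0.56 to −0.23. The summed CPM of the list overlapped, at 2325 to 4998 in Nampt-cKO skin and 1756 to 5405 in control skin. Etv4, an ETS transcription factor, had 31.1, 35.2, 30.4 and 33.8 RPKM in Nampt-cKO skin, against 3.02, 3.91, 3.65 and 4.21 RPKM in control skin. The libraries of each group lay close together and the groups far apart (log2 fold change 3.22 ± 0.13, edgeR adjusted p = 1.4e-06). Etv5, Ier3 and Phlda1 were higher by log2 fold changes of 2.30, 2.69 and 2.32 (edgeR adjusted p = 1.33e-05, 0.000121 and 0.000352). Fosl1, an AP-1 subunit named after its values were seen, was at 6.95 to 43.6 RPKM in Nampt-cKO skin and 0.395 to 1.66 RPKM in control skin, a log2 fold change of 5.11 ± 0.69 (edgeR adjusted p = 0.000364), 5.80 without control replicate 4 (adjusted p = 0.000599) 3.99 on unique exon reads (adjusted p = 0.000622) and 3.67 in limma on log2(RPKM + 1) (adjusted p = 0.00044). The most abundant target, the immediate early gene Fos, was not past the test, with 224, 148, 275 and 568 RPKM in Nampt-cKO skin and 324, 198, 133 and 924 RPKM in control skin (log2 fold change −0.28 ± 0.61, edgeR adjusted p = 0.738). Its highest value was in control replicate 4, and without that library its log2 fold change was 0.58 (adjusted p = 0.374).

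Of 10 feedback inhibitors of ERK signalling, 4 were higher and 6 were not past the test, with a median log2 fold change of 0.26. Dusp6, the phosphatase that inactivates ERK in the cytoplasm, had 86.2, 92.2, 123 and 150 RPKM in Nampt-cKO skin, against 21.1, 16.4, 12.9 and 46.5 RPKM in control skin. The groups did not overlap, control replicate 4 was again the highest control library, and the log2 fold change was 2.31 ± 0.40 (edgeR adjusted p = 0.00136). Spred1, Spry4 and Spred3, which act between the receptors and RAF, were higher by log2 fold changes of 0.78, 1.15 and 1.05 (edgeR adjusted p = 9.82e-05, 0.000777 and 0.00104). Dusp1, the most abundant of the list, was not past the test, with a log2 fold change of −0.41 (adjusted p = 0.405).

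**Figure D5:**
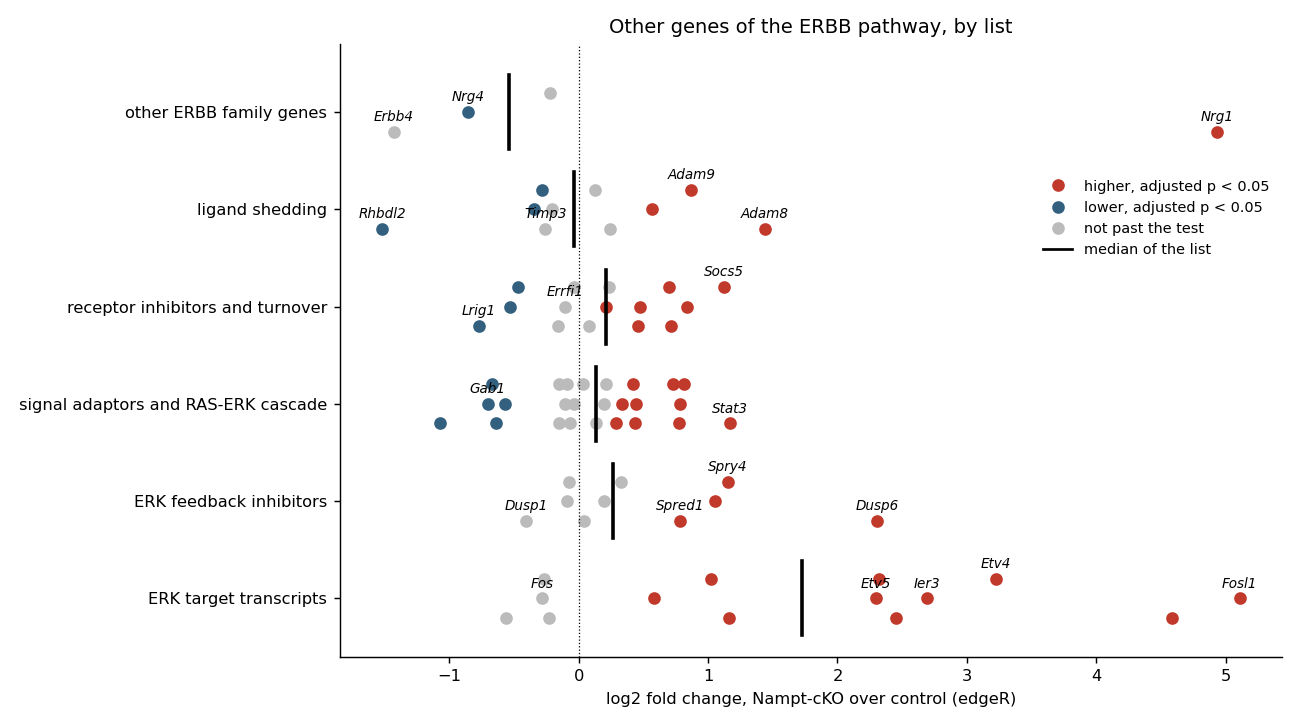
Log2 fold change (edgeR, Nampt-cKO over control) of the 78 tested genes of the 6 pathway lists, one point a gene, coloured by the test, with a black line at each list's median. The ERK targets reach furthest to the right, with a median of 1.73, while the adaptor and cascade genes lie around a median of 0.13.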

How the data were processed

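Poly-A selected RNA of whole skin was sequenced on an Illumina NovaSeq. The authors' deposited table gives, per gene and library, total exon reads as whole-number counts with no normalization, reads of other classes, and RPKM, for which the authors scaled exon reads to exon length and depth. The submitters' notes name GRCm38 and mm10 as builds. For the aligner, the counter and its strand setting: not given in the sources used here. Columns of the authors' own comparison (fold changes, p-values) were not used. Between 61.7% and 64.2% of nonzero counts were even, so both reads of a pair may have been counted. Standard errors and SDs reflect the spread between libraries.

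Counts were tested with edgeR 4.0.16 in R 4.3.3 (filterByExpr, TMM factors, quasi-likelihood F-test, Benjamini-Hochberg adjustment over 17286 genes, threshold 0.05). RPKM gave levels, SD (n = 4) and exact permutation tests. Starts were taken as counted from 0 and printed counted from 1. The members and lists were chosen with earlier results of these data known. Named genes were the members, Nampt, up to 4 genes past the test with the smallest p and the most abundant gene of each pathway list, the most abundant gene of each cell type list, and the 3 nearest profiles of the 2 members with the smallest p. The 17 cell type lists gave these results beside those of the report. Of the keratin and gland lists, 4 of 4 stress keratins, 6 of 6 proliferation genes, 7 of 7 tested neutrophil genes and 3 of 7 basal genes were higher, and 5 of 9 spinous and granular and 3 of 6 sebaceous genes were lower. Among other lists, 4 of 10 macrophage genes were higher and 3 lower, 4 of 5 T cell genes and 5 of 7 Langerhans and dendritic cell genes were lower, 1 of 5 mast cell genes was higher, 5 of 6 melanocyte genes were higher and 1 lower, 2 of 6 Schwann cell genes were higher and 1 lower, 2 of 6 adipocyte genes were lower, 1 of 4 hair shaft genes was higher and 1 lower, 1 of 7 fibroblast genes was higher and 3 lower, and 1 of 6 endothelial genes was lower. The 8 skeletal muscle genes did not pass. The 23 alternatives covered scaling, filters, DESeq2 1.42.0, limma 3.58.1, read classes, a replicate block and leaving out libraries.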

Additional observations from a re-analysis of the deposited data

Results flagged for a closer look

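Among 104 groups of 4 libraries examined, 7 held a library far from the other 3 by Dixon's criterion. Chance flags about 1 in 20 of all groups examined. The groups share libraries and are not independent, so that rate cannot decide whether these 7 flags arose by chance. Control replicate 4 accounted for 4 of them: Areg was at 26.7 CPM there, against 4.92 to 7.26 CPM in the other control libraries, Epgn at 50.9 CPM against 10.7 to 16.4, Hbegf at 40.1 CPM against 8.90 to 13.2, and Phlda1 at 32.0 CPM against 24.3 to 25.2. In control replicate 3, Nrg2 was at 15.3 CPM against 9.82 to 10.6 CPM. In Nampt-cKO replicate 3, Egf was at 5.30 CPM against 1.13 to 1.65 CPM in the other Nampt-cKO libraries, and in Nampt-cKO replicate 1, Nrg4 was at 7.17 CPM against 2.66 to 3.15 CPM.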

How the results depend on the processing

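Under 23 alternatives the number of members past the test ran from 6 to 8 (7 in the report), 6 to 7 when a library was left out. Areg, Epgn, Hbegf, Tgfa, Btc and Erbb2 passed in all 23 with the same direction, Egfr in 13, Ereg in 10 and Egf and Erbb3 in none. Pathway genes past the test numbered 41 to 50 (47 in the report). The median log2 fold change over all genes ran from −0.10 to 0.03. Among the named genes, directions turned only in some that were not past the test. When libraries were left out in turn, Egf ran from −0.41 to 0.57, Dusp1 from −0.67 to 0.0087, Errfi1 from −0.27 to 0.020, Nrg2 from −0.61 to 0.042 and Fos from −0.81 to 0.58. Without control replicate 4 and Nampt-cKO replicate 3 together, an alternative chosen after seeing the data, Egf was −0.56, Dusp1 0.079, Errfi1 0.062, Nrg2 0.0072 and Fos 0.63, and with limma-voom sample weights Fos was 0.27. The cause of these turns was not tested. Nothing in the labels makes same-numbered libraries pairs, and their deviations correlated at −0.05, 0.04, 0.18 and 0.11, of which 2 lie under 0.1, although 3 of 4 Nampt-cKO and 2 of 4 control libraries correlated best with their own number. With the replicate block 8 members, Ereg added (log2 fold change −0.77, adjusted p = 0.0174), and 46 pathway genes passed, and over all genes 3749 were higher and 3767 lower. Egf, Erbb4 and Nrg3, with few reads, allow no firm statement, and 4 libraries a group limit the test of small changes.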
